A study of Mus musculus with 10 samples.

Results

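Clusters of RBFOX2 crosslinking at the 3′ ends of expressed genes are described here. They were taken from the iCLIP clusters of a tagged RBFOX2 library as deposited, after the authors' filter for enrichment over an untagged library. A cluster was included when it overlapped exactly 1 locus of the expression table, when that locus had a mean of at least 1 FPKM in the shLuc and shGFP hairpins and spanned at least 5 kb, and when the cluster's summit lay within 1 kb of the locus end that is 3′ on the cluster's strand. FPKM is a count of sequenced fragments normalised to transcript length and library size. Of 35639 clusters, 26434 overlapped exactly 1 locus and 24864 lay in an expressed locus of that length. Of these, 1741 met the rule, in 1319 of 10190 such loci. The last kilobase stands in for the 3′ untranslated region (3′ UTR), since exon positions were not used here.

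V6.5, a mouse embryonic stem (ES) cell line, was used throughout. In the iCLIP lines, a lentivirus carried doxycycline-inducible human RBFOX2, either FLAG-HA-tagged (FHFOX2, 1 library) or untagged (UntagFOX2, 1 library), so the protein mapped was an induced human transgene in mouse cells that also have their own Rbfox2. Both lines were selected in hygromycin at 150 µg/ml for 6 days, induced with 1 µg/ml doxycycline for 24 h and crosslinked at 150 mJ/cm2. For RNA-seq, cells carried a hairpin against Rbfox2 (shFox2-1 or shFox2-2) or a control hairpin (shLuc against luciferase, shGFP against GFP), each in biological duplicate. They were selected with puromycin at 1 µg/ml for 3 days and kept a further 24 h without it. Each hairpin has 1 deposited FPKM value that pools its duplicates, and these cells carried no described RBFOX2 transgene.

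RBFOX2 is an RNA-binding protein whose RNA recognition motif prefers GCAUG, most often preceded by U. In introns its position relative to an alternative exon is known to set whether that exon is included or skipped. In neurons the related Rbfox1 is also known to act in the cytoplasm through 3′ UTR sites, where it affects mRNA level and translation. 3′ UTRs carry sites for microRNAs and for many other RNA-binding proteins, so signal there is of interest apart from splicing.

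The clusters fitted the strand and gene they were assigned to. The authors' gene ID named the same gene as the expression table for 1663 of 1741 clusters (95.5%, 95% exact binomial interval 94.4 to 96.4%). Of 1383 whose gene ID is that of a gene with 1 known orientation in RefSeq, 1380 lay on that strand. Whether the authors used strand in giving these IDs is not known here. Among the 1383 the last kilobase therefore was the 3′ end of the annotated gene in nearly every case. Of all 1741 summits 25 lay beyond the locus end, a number kept low by the rule, since each cluster had to overlap its locus. The cell type was as labelled in the RNA-seq data. Sums over 9 ES cell markers, Sox2 at 2 loci, were 1653 FPKM in shFox2-1, 1386 in shFox2-2, 1365 in shLuc and 1516 in shGFP. Each marker set for feeder, neural, endoderm, trophoblast or mesoderm cells summed to between 1.11 and 9.39 FPKM, with Lum and Dcx listed at 0. The chosen markers Nanog (ES cells) and Thy1 (feeders) are not in these sums. Thy1, in a merged locus, stood at 1.215 FPKM in shFox2-1, 2.045 in shFox2-2, 2.12 in shLuc and 2.167 in shGFP. The targeted gene, Rbfox2, stood at 8.56 FPKM in shFox2-1 and 7.21 in shFox2-2, against 24.7 in shLuc and 23.3 in shGFP (log2 fold change -1.5, standard error 0.14), so the knockdown labels held. Its 50 clusters were all further inside the gene: none was in its last kilobase, the nearest summit lying 7027 bp from its 3′ end.

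Among the 1 kb windows counted from either end of expressed loci, the last kilobase held the most listed clusters per locus. The last kilobase held 17.1 clusters per 100 loci, against 9.11 in the second kilobase from the 3′ end, 6.96 in the third and between 4.92 and 6.25 in each of the next 17. At the other end of the locus there was no such crowding: the first kilobase held 373 clusters, or 3.66 per 100 loci, the lowest of the first 20 windows counted from that end. Within the last 2 kb, 65.2% of clusters fell in the last kilobase, and of the clusters in the last and the first kilobase together 82.4% were at the 3′ end. With each locus counted once per window, so that loci with several clusters weigh no more than others, these shares were 64.2% and 79.7%. With a fold over untagged of at least 4, or no untagged coverage, 781 clusters were left in the last kilobase. The second kilobase then held 492 and the first kilobase 236. These are counts from 1 tagged library, so the difference between windows has no replicate test.

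**Figure D1:**
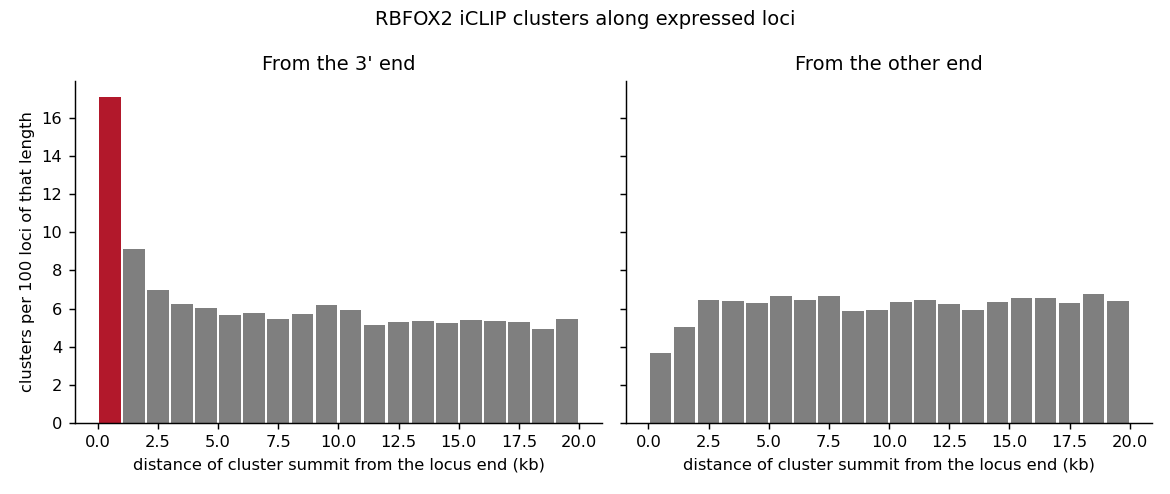
Number of clusters per 100 expressed loci long enough to reach each 1 kb window (y axis), by distance of the cluster summit from the 3′ end (left) or from the other end (right) in kb; the red bar is the last kilobase and includes the 25 summits past the locus end. The last kilobase stands at 17.1 and the second at 9.11, whereas the first kilobase at the other end stands at 3.66.

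Inside the last kilobase the density was highest next to the end of the gene. Summits were counted in 100 bp steps: 266 lay in the last 100 bp, 251 between 100 and 200 bp and 220 between 200 and 300 bp, and from 300 bp outwards each step held between 125 and 152. The median summit lay 368 bp from the end (quartiles 154 and 664 bp). Median coverage had no matching slope, at 415 in the last 100 bp and 538 in the step nearest 1 kb. The limit of 1 kb cut through a continuous distribution: the clusters just inside it, in Mrpl42, Dynll2 and Copz1 (all with summits 1000 bp from the end), had coverages of 167, 6952 and 225, and those just outside it, in Tmem68, Nub1 (both 1001 bp) and Ivns1abp (1002 bp), had 594, 587 and 1891.

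The clusters were somewhat broader and higher than those elsewhere in expressed loci. Coverage, a whole number given by the authors for each cluster, had a median of 494 at the 3′ end (quartiles 260 and 1164) against 372 for the 23123 other clusters of such loci (226 and 829). Width had a median of 113 bp (quartiles 75 and 192) against 89 bp (66 and 140). The second kilobase from the 3′ end lay near the last, with medians of 442.5 in coverage and 104.5 bp in width. Neither trait was therefore particular to the last kilobase. The highest coverages of the series were not at the 3′ end: the largest value there was 72062, against 202869 elsewhere. The difference in coverage went with expression level. In the quartile of loci with the highest control FPKM the median was 701 at the 3′ end and 400 elsewhere, whereas in the lowest quartile it was 332.5 at the 3′ end and 353 elsewhere.

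Signal in the untagged library was more common at the 3′ end than inside genes. The deposited fold is the tagged coverage over the untagged one and is infinite where the untagged library had none. It was infinite for 420 of 1741 clusters at the 3′ end (24.1%, 95% exact binomial interval 22.1 to 26.2%), against 10584 of 23123 others (45.8%, 45.1 to 46.4%). Among finite values the median fold was 2.40 at the 3′ end and 3.88 elsewhere, and a fold under 2 was found for 28.7% of 3′ end clusters and 10.3% of others. The second kilobase lay between, with 29.0% infinite and a median finite fold of 2.91, and the first kilobase had 42.1% and 3.04. The intervals here cover counting error only, and the untagged library went through 7 PCR cycles beyond the 16 of the tagged one. The part of this in the difference was not tested.

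Against clusters more than 5 kb from both ends, the difference in fold was also present at like coverage. That in the share without untagged signal was present up to a coverage of 2500. The deposited fold carried a scaling: for 9568 clusters coverage divided by fold, given the rounding of the fold, was known to a range under 0.5 wide, and that range held a whole number in each. Of these whole numbers, 99.5% were multiples of about 4.47 after rounding. The commonest value was 112, which is 25 such steps and occurred in 4782 clusters. Untagged coverage thus entered the ratio as if multiplied by about 4.47. Among clusters with coverage from 500 to under 1000, 15.7% at the 3′ end had no untagged signal (interval 12.1 to 19.9%), against 35.0% (33.3 to 36.7%) of clusters more than 5 kb from both ends. From 1000 to under 2500 the shares were 2.88% at the 3′ end (1.33 to 5.41%) and 16.6% inside genes (15.0 to 18.3%). In the second kilobase the shares in these 2 classes were 15.5% (10.2 to 22.2%) and 4.85% (2.12 to 9.33%). There the low share was thus not particular to the last kilobase. From 250 to under 500 the second kilobase had 39.3% and the last 29.3%. At 2500 or more, none of 198 clusters at the 3′ end lacked untagged signal, which allows a share of up to 1.85%, against 1.22% of internal ones, so no difference was detectable there. In the lowest coverage class, under 250, the median finite fold was 1.82 at the 3′ end and 1.93 inside genes. In the highest it was 3.62 at the 3′ end, 4.82 in the second kilobase and 7.97 inside genes.

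**Figure D2:**
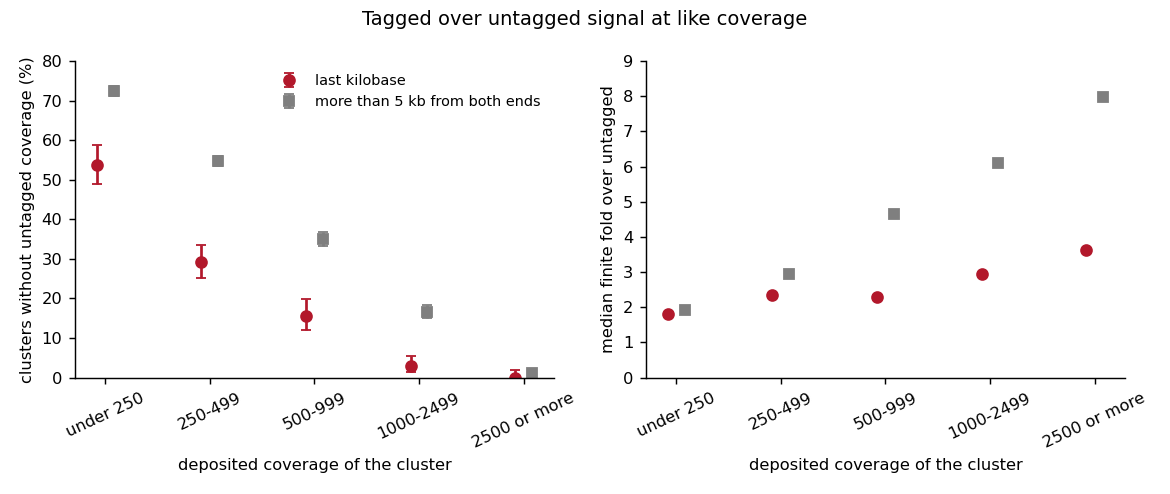
Left, percent of clusters without untagged coverage, with 95% exact binomial intervals; right, median finite fold over untagged; both by class of deposited coverage (x axis), for clusters of the last kilobase (red circles) and clusters more than 5 kb from both ends (grey squares). The 3′ end clusters have the lower share in the 4 lower classes, and their median fold reaches 3.62 in the highest class against 7.97 for internal clusters.

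The same was seen within single genes. In 1025 loci that had a cluster in the last kilobase and another elsewhere, the median fold was lower at the 3′ end in 659, higher in 200 and equal or infinite in both in 166. Median coverage differed in the other direction, being higher at the 3′ end in 631 of these loci and lower in 390. The last kilobase held a median of 28.8% of the coverage of the locus, and it held over 50% in 300 loci. In a further 294 loci, 22.3% of the 1319, every cluster was in the last kilobase.

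Which genes carried such a cluster went with how strongly they were expressed. It was present in 12.9% of the 10190 expressed loci of at least 5 kb. The share was 3.69% in the lowest quartile of control FPKM (1.00 to 3.30 FPKM) and 23.8% in the highest (18.4 to 887.4 FPKM). By quartile of locus length it lay between 10.6% and 15.3%, with no steady order. Among loci with any cluster it fell with length, being 31.5%, 26.9%, 24.3% and 18.5% from the shortest to the longest quartile. Median control FPKM was 16.5 in loci with a last-kilobase cluster, 8.45 in loci with clusters elsewhere only and 5.45 in loci with none. Over the 1319 loci, summed coverage in the last kilobase and control FPKM had a Spearman rho of 0.25, as a description of 1 library set against pooled hairpins.

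**Figure D3:**
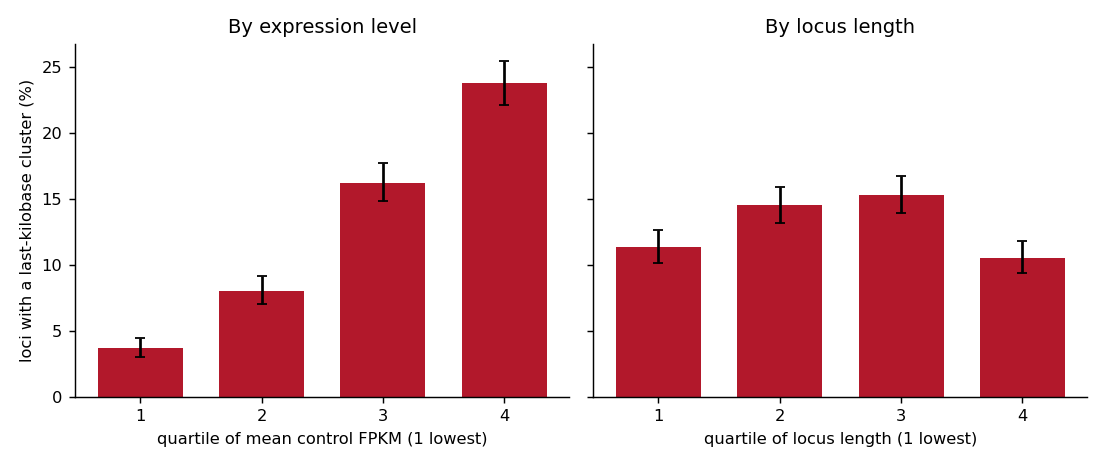
Percent of expressed loci of at least 5 kb that have a last-kilobase cluster (y axis), by quartile of mean control FPKM (left) and of locus length (right), with 95% exact binomial intervals. The share climbs to 23.8% in the highest quartile of FPKM, against 3.69% in the lowest, and stays between 10.6% and 15.3% across lengths.

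The strongest 3′ end clusters were in genes of varied function (positions on mm9, from the deposited clusters). The highest coverage, 72062 with a fold of 5.39, was in Ppp1cb, a catalytic subunit of protein phosphatase 1, at chr5:32793573-32795073 on the plus strand. That cluster was 1501 bp wide and held 99.0% of the coverage of its locus. Polr2a, the largest subunit of RNA polymerase II, followed with 47037 (fold 5.27) at chr11:69547980-69549032 on the minus strand, and both of its clusters were in the last kilobase. Enah, an actin regulator, had 35485 (fold 3.53) at chr1:183834681-183835564 on the minus strand, yet this was 5.2% of the coverage over its 60 clusters. Celf1, itself a regulator of splicing and mRNA decay that binds GU-rich RNA, had 33741 (fold 3.82) at chr2:90856812-90857972 on the plus strand, with a summit 331 bp past the end of its locus. Atp6v0e, a subunit of the vacuolar proton pump, had 33121 (fold 8.22).

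The next 5 by coverage were Zfand6 (21440, fold 6.61), which encodes a zinc finger protein, Trim71 (19525, fold 2.36), Ywhae (18961, fold 1.40), Aplp2 (17342, fold 3.6) and Dync1i2 (16462, fold 8.66). Trim71 is the ES cell RNA-binding ubiquitin ligase known as a let-7 microRNA target. Ywhae, which encodes a 14-3-3 protein, shows that high coverage can stand beside a low fold: it had 474 FPKM in shFox2-1 and 462 in shFox2-2, against 371 in shLuc and 424 in shGFP, and its cluster exceeded the scaled untagged signal only 1.40 times. The 5 highest finite folds were in clusters of low coverage, in Adam19 (82.75), Anp32e (81.0), Mapk6 (75.25), Rab2a (74.75) and Thy1 (74.5), with coverages between 298 and 331. In each the untagged value was the smallest above 0, a single step of about 4.47 after rounding. The order of these folds is therefore that of their coverage. Without any untagged signal, the highest coverages were 2438 in Kdelr2, the receptor that returns proteins to the endoplasmic reticulum, 1921 in Prr14l, 1615 in Tmeff1, 1425 in Rps6kb1, which encodes S6 kinase, and 1296 in Sdhaf4.

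Most genes had a single 3′ end cluster. Of the 1319 loci 995 had 1, 254 had 2, 52 had 3, 12 had 4 and 6 had 5 or more. Some of these were a single site listed under 2 gene IDs: 17 pairs overlapped by over 90% of the smaller cluster, all 17 with different IDs. With the smaller of each pair left out, 1724 clusters and 1003 loci with 1 cluster were left. Tnks2, which encodes the poly-ADP-ribosyltransferase tankyrase 2, had 7, of which 6 abutted or overlapped at their edges in a run between 676 and 936 bp from the end, with coverages from 2514 to 11973 and folds from 1.77 to 6.07. Kansl1 (listed as 1700081L11Rik), a subunit of a histone acetyltransferase complex, also had 7. Its coverages stood at 468, 834, 2011, 1199, 6471, 11253 and 13453 from 362 to 949 bp from the end.

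Obi1 (listed as 2610206B13Rik), a ubiquitin ligase of the origin recognition complex, was weakly expressed and had 5 spaced clusters, 3 of them with no untagged signal, and no cluster anywhere else. Atad1, a mitochondrial ATPase, had 5 of its 7 clusters here, and Dpysl2, a microtubule-binding protein of neurons, 5 of 13. Mapk6, an atypical MAP kinase, had 4 and none elsewhere, the strongest (15427, fold 11.8) with its summit 2.5 bp from the end. Skp1a, the adaptor of SCF ubiquitin ligases, likewise had 4 of 4, and the septin gene Sept11 had 4 of 18. Map1lc3b, which encodes the autophagosome protein LC3B, and AK122209 were listed with 4 and 5, which become 2 and 3 when nested pairs are counted once.

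The gene groups examined differed in how many members carried a 3′ end cluster, to be read against 12.9% of all expressed loci and with the dependence on FPKM in mind. SR splicing factors and Tra2 proteins had them in 6 of 9 expressed loci: Srsf9 (coverage 1876, its only cluster), Srsf11 (1273), Srsf6 (1125), Srsf3 (785), Srsf7 and Srsf10. The hnRNP proteins, which package and help splice nascent RNA, had them in 6 of 27. There Hnrnpl stood out by level, with 13309 and 96.8% of its coverage in the last kilobase, though with a fold of 1.32. Hnrnph1 had 2053, Hnrnpm 1746 and Hnrnpul2 1732. Other splicing regulators had them in 14 of 45, led by Celf1 (35564 over 2 clusters), Fubp3 (5291), Ewsr1 (3803) and Matr3 (3505).

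Proteins that themselves act at 3′ ends were also examined. Cleavage and polyadenylation factors had clusters there in 4 of 21 loci: the phosphatase gene Ppp1cb, Cpsf6 (4183 over 3 clusters), the poly(A) polymerase gene Papolg (653) and Cstf2 (199). Proteins that bind 3′ UTRs had them in 9 of 34, among them the N6-methyladenosine reader gene Ythdf1 (3617), Stau2 (2400) and Igf2bp2 (1160). Genes of poly(A) binding and deadenylation had them in 2 of 27 (Cnot6l at 338 and Tob2 at 175). In the microRNA pathway 2 of 14 had them, Trim71 and the let-7 inhibitor gene Lin28a (1264). Genes of nonsense-mediated decay and the exon junction complex had them in 3 of 16, among them Upf2 (2760, 94.6% of its coverage) and Upf3b (244).

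Outside RNA regulation, genes of the actin cytoskeleton and adhesion had 3′ end clusters in 14 of 30 loci, with Enah, the catenin gene Ctnnb1 (9554), the filamin gene Flna (5522) and the integrin gene Itgb1 (5078) highest. Cell cycle genes had them in 10 of 26, among them Mcm2 (1761), Aurka (1373), E2f1 (1093) and Cdk2 (997). Chromatin regulators had them in 14 of 37, with Rif1 (10266), the remodeller gene Smarca5 (6850), Hdac2 (3807) and Arid1a (2271) highest. Pluripotency genes had them in 9 of 26, among them Sall4 (6506), Jarid2 (3803) and Dppa4 (1974), and p53 targets in 5 of 16, among them Ei24 (3558), Pmaip1 (2471), Bbc3 (1057) and Mdm2 (387). Microtubule and kinesin genes had them in 4 of 21, namely Kif2a (1036), Clasp2 (515), Kif5a (198) and Kif1b (179). None was found in 8 cytosolic ribosomal protein loci or 7 loci of neural markers, and no mesoderm marker was expressed in a locus of 5 kb. Single genes carried them among endoderm and trophoblast markers (Tfap2c, 1 of 4) and feeder markers (Thy1, 1 of 3, in a merged locus of 227633 bp that also holds LOC100042548).

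Expression after Rbfox2 knockdown was then read out for these genes. Of the 1319 loci, 13 had a failed FPKM estimate in some hairpin and were left out, Acsl4 and Cdc42 among them, which left 1306. By limma on log2(FPKM + 1), fitted over all 20281 tested loci, 0 of the 1306 passed an adjusted p of 0.05, as in the whole table (0% called, and 4.48% of all tested loci at an unadjusted p under 0.05). Rbfox2 itself had a limma adjusted p of 0.913, so the adjusted test did not call the targeted gene either. The lowest limma adjusted p among them was 0.978. At an unadjusted p under 0.05 there were 44, or 3.37%, against 3.24% of all 10098 expressed loci of at least 5 kb, so the share lay at the background. Of the 44, 30 were higher and 14 lower, whereas over the 10098 loci 150 were higher (1.49%) and 177 lower (1.75%). In direction the 44 thus leaned higher, unlike the background. Of the 30, 25 were in the top quartile of control FPKM. In that quartile 4.86% of loci with a 3′ end cluster and 5.03% of other loci had such a p, the others with 61 higher and 35 lower. In bulk RNA, fewer cells of a type and less RNA per cell cannot be told apart.

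A second description used the deposited FPKM intervals. Here separated means that neither knockdown interval touched a control interval and that shFox2-1 and shFox2-2 fell on the same side of shLuc and shGFP. Of 1306 loci with a 3′ end cluster, 10 were separated, against a background of 0.317% over all expressed loci of at least 5 kb. Of these 9 were higher (background 0.218%) and 1 lower (background 0.099%). All 9 higher loci were in the top quartile of control FPKM. In that quartile 1.51% of loci with a 3′ end cluster and 0.838% of other loci were separated. The part of expression level and of interval width in this was not tested. The count rested on every hairpin being used. It was 17 without shLuc (background 0.792%), 24 without shGFP (1.01%), 78 without shFox2-1 (2.68%) and 203 without shFox2-2 (8.55%). The limma adjusted p of each separated locus was 0.978.

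Sall4, which encodes a pluripotency transcription factor, combined a separated level with strong 3′ end signal. It stood at 91.4 FPKM in shFox2-1 (interval 84.8 to 97.9) and 87.7 in shFox2-2 (80.7 to 94.8), against 70.98 in shLuc (66.0 to 76.0) and 72.3 in shGFP (67.2 to 77.5), a log2 fold change of 0.32 (standard error 0.10). Both knockdown values lay above both controls with no overlap of intervals, which is what separated means here. Its last kilobase held 69.8% of its coverage, mostly in a cluster at chr2:168574202-168574952 on the minus strand with coverage 6145 and a fold of 1.52.

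Tor1aip2, which encodes a torsin-interacting protein of the endoplasmic reticulum, stood at 73.05 FPKM in shFox2-1 and 70.4 in shFox2-2, against 57.85 in shLuc and 55.4 in shGFP (log2 fold change 0.34, standard error 0.10), and its 2 last-kilobase clusters had a coverage of 2854. Its locus also carries the name Ifrg15. Tsn, which encodes the nucleic acid-binding protein translin, had both of its clusters in the last kilobase (coverage 1414). It stood at 63.9 and 69.0 FPKM in shFox2-1 and shFox2-2, against 51.1 and 47.5 in shLuc and shGFP (0.42, standard error 0.11). Uba2, a subunit of the SUMO-activating enzyme, had 46.1% of its coverage at the 3′ end (2638) and stood at 189 and 187 FPKM in the knockdown hairpins against 146 and 158 in the controls. In all 3 genes both knockdown values were above both controls, as being separated requires.

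In the other separated genes summed coverage at the 3′ end was lower, between 218 and 827. Mdm2, the negative regulator of p53, had 8.9% of its coverage in its last kilobase (387) and stood at 55.6 and 49.55 FPKM in shFox2-1 and shFox2-2 against 36.1 and 38.1 in shLuc and shGFP. Ash2l, a subunit of histone H3K4 methyltransferase complexes, had 5.5% there (642) and stood at 208 and 212 FPKM against 163 and 177. Srsf7 had 33.2% (218) and stood at 136 and 122 FPKM against 100.2 and 97.9. In these 3 genes both knockdown values were again above both controls, by the same criterion. Ssr3, of the translocon-associated complex, had 28.9% (827) and stood at 102 and 103 FPKM against 84.8 and 81.8. Sar1a, the GTPase of COPII vesicles, had 46.5% (475) and stood at 50.05 and 47.6 FPKM against 36.8 and 33.5. The single lower gene was Pls3, an actin-bundling plastin, with 10.4 and 9.17 FPKM in the knockdown hairpins against 15.3 and 15.2 in the controls (log2 fold change -0.60, standard error 0.13) and a last-kilobase coverage of 226, near the low end of the list. With hairpins centred on the median locus (FPKM multiplied by 0.934 in shFox2-1, 1.07 in shFox2-2, 1.02 in shLuc and 0.97 in shGFP), 11 loci were separated, 9 higher and 2 lower (background 0.347%), and Tor1aip2, Tsn, Ssr3, Uba2 and Ash2l were no longer separated.

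**Figure D4:**
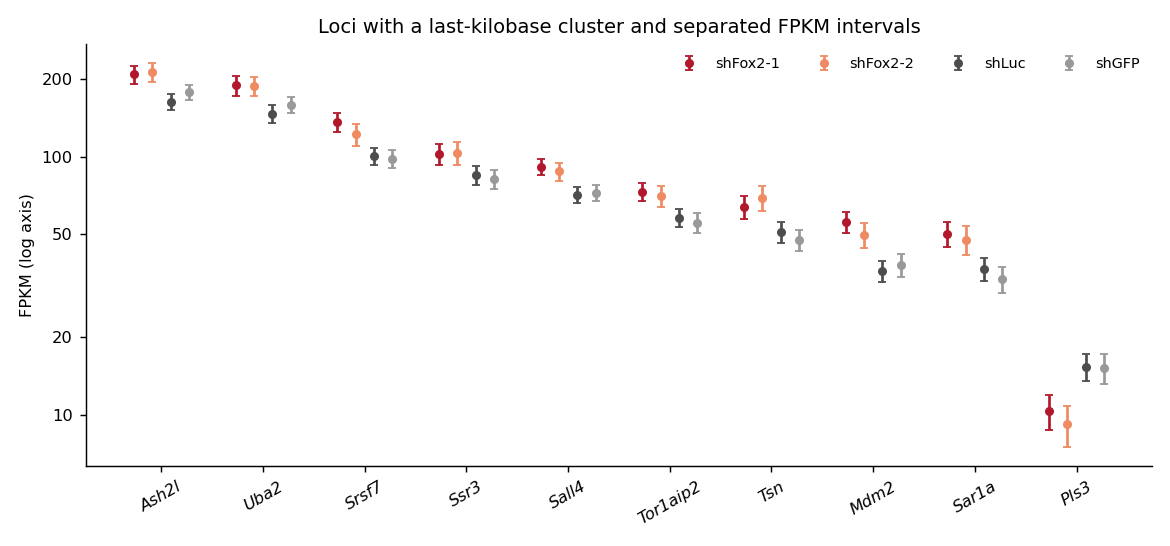
FPKM on a log axis with the deposited interval, for the 10 loci with a last-kilobase cluster whose intervals were separated, in shFox2-1, shFox2-2, shLuc and shGFP (left to right within each gene). In 9 genes both knockdown hairpins lie above both controls, and in Pls3 both lie below, since the loci were chosen for separated intervals.

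The loci of the 10 highest 3′ end clusters were not among the separated ones. Of 502 loci with last-kilobase coverage of at least 1000, however, 4 were separated, all higher. That is 0.797%, against 0.766% of the 1306 and a background of 0.317%. Ppp1cb stood at 142.7 and 121 FPKM in shFox2-1 and shFox2-2 against 118 and 112 in shLuc and shGFP. Polr2a stood at 95.5 and 74.45 FPKM against 67.5 and 66.2, Celf1 at 76.8 and 73.4 against 71.3 and 70.2, and Enah at 165.6 and 150.0 against 142.7 and 146.3. Both knockdown values were above both controls in these 4, but the intervals overlapped in each. Tnks2 (46.6 and 33.0 against 38.4 and 38.6 FPKM) and Trim71 (18.5 and 10.8 against 14.5 and 15.9) lay on opposite sides of the controls in the 2 knockdown hairpins. Mapk6, with all its clusters at the 3′ end, had a log2 fold change of 0.02 (standard error 0.11).

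By size of change alone, the 5 largest log2 fold changes upward among loci of at least 5 FPKM in the controls rested mainly on shFox2-1. Pdgfa, a growth factor gene, stood at 23.7 and 8.14 FPKM in shFox2-1 and shFox2-2 against 6.33 and 7.17 in shLuc and shGFP. Tbx3, a T-box factor of naive ES cells, stood at 14.5 and 5.51 against 5.10 and 5.24 FPKM. AU015836 (30.4 and 9.11 against 10.9 and 11.1 FPKM) and Pecam1, a cell surface adhesion gene (24.1 and 11.8 against 10.7 and 12.0 FPKM), were not above both controls in shFox2-2. Fam122b stood at 13.2 and 9.55 against 7.95 and 6.34 FPKM. Without shFox2-1 the log2 fold change was 0.24 in Pdgfa, 0.08 in Tbx3, 0.38 in Fam122b, 0.06 in Pecam1 and -0.25 in AU015836, against 0.96, 0.70, 0.59, 0.54 and 0.57 with it. Downward, the mitophagy gene Bnip3 had 6.78 and 7.82 FPKM in the knockdown hairpins against 11.8 and 13.0 in the controls (log2 fold change -0.69, standard error 0.15), and both of its clusters were in the last kilobase (510).

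An unnamed locus on chromosome 11 whose cluster carries the gene ID of Mbtd1 had 12.1 and 11.5 FPKM in shFox2-1 and shFox2-2 against 19.8 and 18.2 in shLuc and shGFP (log2 fold change -0.64). Sfrp2, a secreted Wnt modulator, had 3.04 and 5.12 FPKM in shFox2-1 and shFox2-2 against 6.13 and 5.81 in shLuc and shGFP (log2 fold change -0.49). Igfbp2, an insulin-like growth factor binding protein gene, had 96.9 and 160 FPKM against 166 and 177 (-0.46). Both were lowest in shFox2-1: without that hairpin the log2 fold change was -0.19 in Sfrp2 and -0.10 in Igfbp2, and without shFox2-2 it was -0.79 and -0.81. Pls3 completed the 5 largest falls by log2 fold change.

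As a set, the genes with 3′ end clusters had a median log2 fold change of 0.019, with 714 higher and 592 lower, against -0.012 for the 8792 other expressed loci. The 2 knockdown hairpins did not share this direction. The median was 0.142 in shFox2-1 over the controls and -0.112 in shFox2-2 over the controls, against 0.071 and -0.095 for other loci and 0.082 and -0.097 for all expressed loci, and the 2 comparisons share their control hairpins. Both knockdown values lay above both controls in 228 of 1306 loci (17.5%, background 14.7%) and below both in 146 (11.2%, background 17.4%). In the top quartile of FPKM these shares were 25% above and 7.2% below, against 23.4% and 12.3% for other loci of that quartile. In the lowest quartile they were 5.32% and 25.5%, against 10.7% and 23.7%. Loci with last-kilobase coverage of at least 1000 had a median of 0.023, with 19.1% above both controls and 8.57% below both. Those with every cluster in the last kilobase had a median of 0.000, with 14.7% above and 15% below. The part of expression level in these differences was not tested beyond the quartiles.

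**Figure D5:**
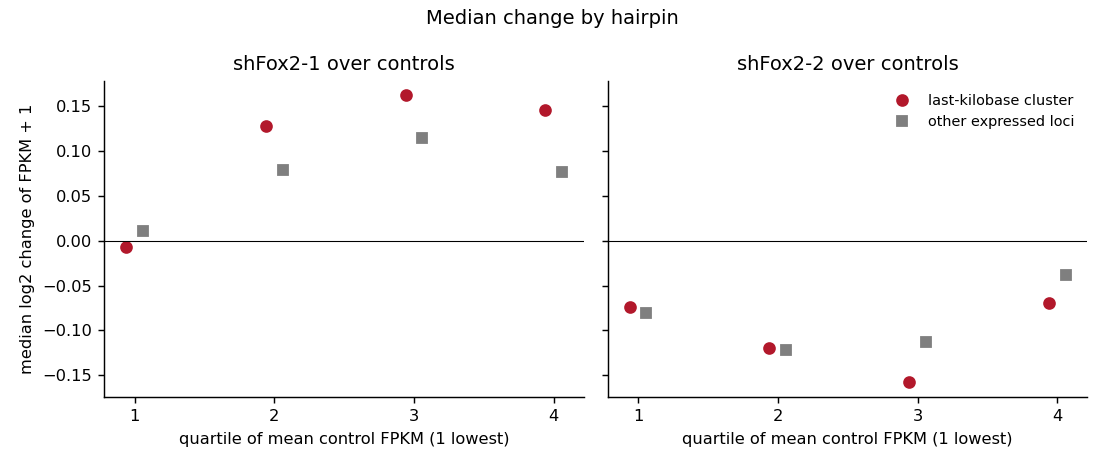
Median log2 change of FPKM + 1 (y axis) by quartile of mean control FPKM (x axis), for loci with a last-kilobase cluster (red circles) and other expressed loci of at least 5 kb (grey squares), in shFox2-1 (left) and shFox2-2 (right), each over the mean of both controls. Medians in the highest quartile are 0.146 and 0.077 in shFox2-1 and -0.070 and -0.038 in shFox2-2, so the hairpins differ in sign there for both sets. In the lowest quartile they are -0.007 and 0.011 in shFox2-1 and -0.074 and -0.081 in shFox2-2.

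By gene group, the 6 SR protein genes with a 3′ end cluster all had positive log2 fold changes, with a median of 0.11 (0.339 in shFox2-1 and 0.015 in shFox2-2), also with hairpins centred, and only Srsf7 was separated. The 4 cleavage and polyadenylation genes had a median of 0.06, the 14 other splicing regulators of 0.00 and the 6 hnRNP genes of -0.06. The 9 genes for 3′ UTR-binding proteins had a median of 0.02, with 5 higher and 4 lower. The 10 cell cycle genes had a median of -0.08, with 8 lower, the 13 cytoskeletal genes with a usable estimate of -0.06, and the 9 pluripotency genes of 0.24. That of the pluripotency genes was 0.346 in shFox2-1 and 0.005 in shFox2-2, and the whole pluripotency list, with or without such a cluster, had a median of 0.255. In all of these groups the median was higher in shFox2-1 than in shFox2-2. Examples are 0.283 and -0.083 in the cleavage and polyadenylation genes and 0.008 and -0.112 in the cell cycle genes. The same held over all expressed loci of at least 5 kb (0.082 and -0.097), so it is not particular to these groups. Centring adds the same constant to every log2 fold change. These medians therefore all moved alike, by under 0.02 (to 0.015 in the other splicing regulators), which is no check of single groups. Over all expressed loci of at least 5 kb the median was -0.007. None of these genes passed limma's adjusted p of 0.05.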

How the data were processed

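Per the file headers, the authors deposited FPKM with lower and upper bounds for each locus, 1 column per hairpin for both duplicates. The submitters' processing notes list TopHat2 2.0, Cufflinks 2.1.1 and mm9. The annotation, the iCLIP aligner and the cluster caller are not given in the sources used here. Clusters were deposited with coverage, fold over untagged and q-value (at most 0.0442) in 1 field. They were used to describe and rank clusters, and each assay's depth is unknown.

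Members were found with Python 3.11.15. The summit was the middle of the deposited summit interval. The 2 knockdown and 2 control hairpins were compared on log2(FPKM + 1) by limma 3.58.1 with its trend option and Benjamini-Hochberg adjustment, under R 4.3.3. It left out 105 loci with a failed status and 6477 at 0 everywhere, and was tested on simulated data. Its p-values measure the spread between hairpins, and fold changes on this scale understate changes of low genes.

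Members, gene lists and the interval criterion were chosen with earlier results of these data known. Named genes are the 10 clusters of highest coverage, the 10 loci with most clusters, all separated loci, the 5 largest rises and falls at 5 FPKM or more in controls, up to 4 genes per list (some that this rule names are not reported here), the highest folds and those nearest the 1 kb limit. Examples without untagged signal were added after their values were seen. Older symbols were matched through RefSeq (GRCm38.p6), and 90.5% of expressed loci of at least 5 kb had a current symbol. Intervals on shares are exact Clopper-Pearson.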

Additional observations from a re-analysis of the deposited data

How the results depend on the processing

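The number of clusters was 1065 with a window of 500 bp and 2669 with 2 kb. A fold of at least 4 left 781 clusters in 676 loci, with 53.8% without untagged signal, a median coverage of 444 and a median width of 103 bp. With the 2 kb window the median finite fold was 2.54. The share at the 3′ end among clusters of the last and the first kilobase was 79.7% with each locus counted once. Loci with an unadjusted limma p under 0.05 numbered 97 with no filter and 92 with hairpins centred. The share over all expressed loci is not given for these settings, so these counts are no result about the loci. Leaving out 1 hairpin gave 4 to 268 such loci, 17 to 203 separated loci and medians of log2 fold change from -0.112 to 0.142, the lowest without shFox2-1 and the highest without shFox2-2. The log2 fold change of AU015836 then ran from -0.25 without shFox2-1 to 1.39 without shFox2-2. The cause of these shifts was not tested, apart from those set by a narrower or wider rule. In the other settings tried, these results stayed within 1.5 times of the count or within the interval of the value as described. Counting nested clusters once and allowing overlap with non-qualifying loci (1724 and 1827 clusters) were chosen after seeing the data. A hairpin alone in its group was assumed to vary like the other group. No paired analysis was possible because each deposited value pools the duplicates of a hairpin and carries no replicate number. Depth is unknown, and no cluster below a coverage of 148 was listed.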
